A study of Mus musculus with 23 samples.

Results

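Uninduced ilet7 ES cells were compared with wild-type ES cells, 3 libraries of each, over every gene that reached a mean of at least 1 TPM in these 6 libraries. That left 15693 of the 53715 genes listed. The ilet7 line carries a let-7 microRNA that doxycycline switches on, and here it had received no doxycycline, so its libraries are called ilet7 control. Both groups were mouse ES cells derived from the inner cell mass, both were labelled untreated, and neither was labelled a knockout. The comparison therefore shows how far 2 ES lines differed without a Lin28 mutation. All cells grew on mouse embryonic fibroblast feeders in medium with LIF and 2 kinase inhibitors, and the feeders were removed by plating before lysis. The labels do not give the parental strain, the passage or the sex of either line, nor whether the 3 libraries of a line came from separate cultures, so the p-values measure only the spread between these libraries. The 9 other ES libraries were ilet7 cells given doxycycline for 3 days, Lin28a-null cells and cells labelled Lin28b-null, 3 each, and their values are set beside some genes below.

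ES cells in LIF with inhibitors of MEK and GSK3 hold the naive state, in which POU5F1, SOX2 and NANOG keep the pluripotency network active and FGF signalling through ERK is low. LIN28A and LIN28B bind let-7 precursors and keep them from maturing, and mature let-7 in turn represses mRNAs with matching sites, LIN28 mRNAs among them. ES lines are known to vary in imprinted gene expression, and single cells of a culture pass in and out of a state like that of the 2-cell embryo (2C).

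The family that the ilet7 line is named for shares a seed, bases 2 to 8 of the mature strand, which pairs with targets. It is shown in capitals in 2 members, from RefSeq (GRCm38.p6).
mmu-let-7a-5p: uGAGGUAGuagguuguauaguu
mmu-let-7g-5p: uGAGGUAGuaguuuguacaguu
The libraries do not measure mature microRNAs. Of the 11 let-7 genes listed, 5 were at 0 in all 6 libraries, and the highest value of any was 3.09 TPM. None reached the mean level needed for the test.

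Interferon-stimulated genes had the lowest median difference of the gene lists, given further on. Promoter stretches of 3 of them are shown here, from RefSeq (GRCm38.p6, sense strand). These 3 had the largest differences among list genes that were lower in ilet7 control and held a match. That they hold matches thus follows from the choice. Capitals mark matches to TTTCNNTTTC or its reverse complement GAAANNGAAA, the core of the element that interferon-activated factors bind. Both strands were searched in the 250 bases before the start, and matches may overlap.
Isg15, chr4:156200835-156200936, minus strand: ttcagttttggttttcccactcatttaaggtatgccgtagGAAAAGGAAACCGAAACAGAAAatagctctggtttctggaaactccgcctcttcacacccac
Ifit3, chr19:34583333-34583456, plus strand: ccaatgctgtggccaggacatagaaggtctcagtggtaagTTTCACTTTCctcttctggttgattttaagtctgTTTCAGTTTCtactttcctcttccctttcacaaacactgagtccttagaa
Ifit1, chr19:34640745-34640853, plus strand: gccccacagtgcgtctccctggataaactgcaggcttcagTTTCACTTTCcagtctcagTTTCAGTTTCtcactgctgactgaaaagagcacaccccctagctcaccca
Isg15 held 3 overlapping matches, and Ifit3 and Ifit1 held 2 each. A match stood in 2.98% of all 32851 promoter windows in the RefSeq table. It stood in 6 of 16 interferon-list genes that were lower in ilet7 control and in 5 of 18 that did not pass, counting genes with an entry. A gene counted if any of its windows held a match, so these counts are not on the same footing as the share of windows. A match is a description of the letters, not of a site in use.

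The lines were called different at 760 genes, 4.84% of those tested. A call needed a limma adjusted p under 0.05 and a difference beyond 1 on the log2(TPM + 1) scale, a scale that understates the change of low genes. Of these, 406 genes (2.59%) were higher and 354 (2.26%) were lower in ilet7 control. Without the demand on size, 1440 genes (9.18%) were higher and 1327 (8.46%) lower, and these are the genes said below to pass. Counts of list members that pass are read against these shares, and a count near them says nothing particular about a list. The 3 libraries of one line lay wholly above or below those of the other at 6315 genes (40.2%), and at all 760 that were called. The median difference over all genes tested was 0.02 on the log2 scale. At the edge of the filter on low values, Rsph10b entered at a mean of 1.00 TPM, and Chl1 just missed.

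**Figure D1:**
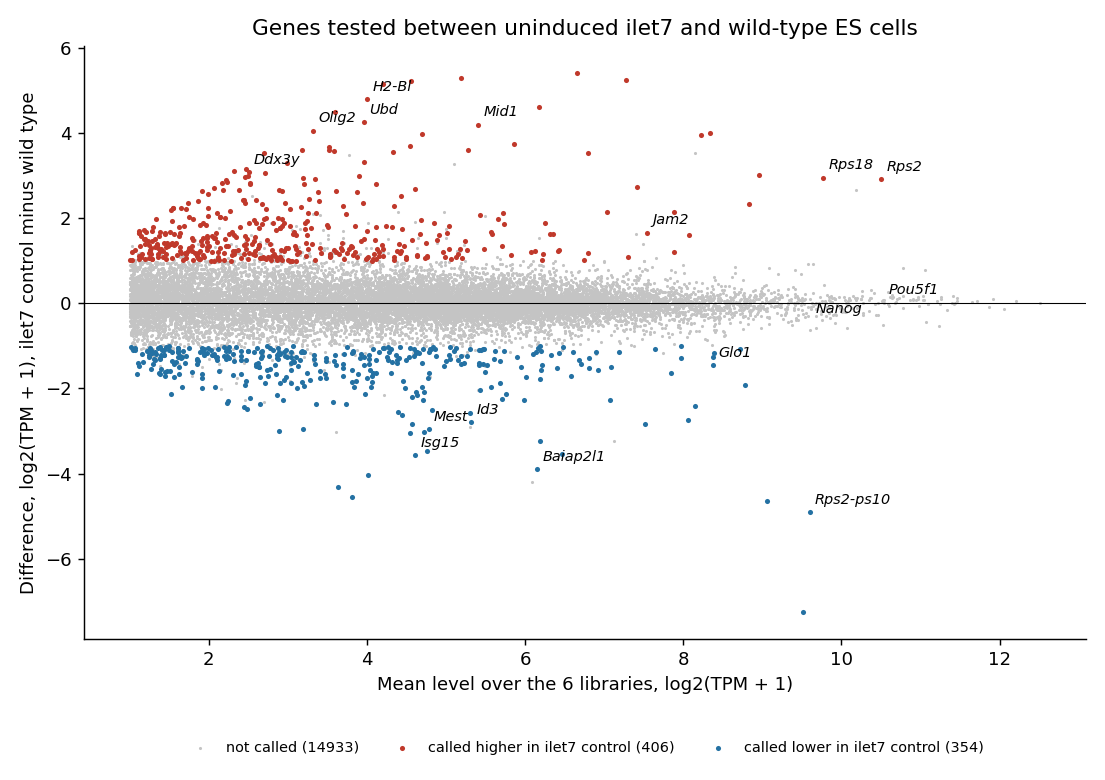
Each point is 1 of 15693 genes, with its mean level over the 6 libraries on the x axis and the difference, ilet7 control minus wild type, on the y axis, both on the log2(TPM + 1) scale. The 406 genes called higher are red, the 354 called lower are blue, and Pou5f1 and Nanog sit at the zero line.

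Other comparisons of ES groups in the same table, tested in the same way, called 2180 of 16060 genes for Lin28a-null against wild type (13.6%). They called 1406 of 15526 genes for cells labelled Lin28b-null against wild type (9.06%), and 284 of 15884 genes for ilet7 with against without doxycycline (1.79%). These counts share libraries with the present comparison and are given side by side only. The median absolute difference between 2 libraries, over genes that averaged at least 1 TPM across the 15 ES libraries, ran from 0.11 to 0.14 on the log2 scale within ilet7 control. It ran from 0.14 to 0.25 within wild type and from 0.27 to 0.31 between the lines. Each distance between a wild-type and an ilet7 control library was thus above the longest within either line.

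Wild-type replicate 2 stood apart. It was 0.23 and 0.25 from the other wild-type libraries, which were 0.14 from each other. The summed level of 10 fibroblast markers (Col1a1, Col1a2, Col3a1, Postn, Thy1, Pdgfrb, Acta2, Twist2, Lum and Dcn) was 1369 TPM in this library, against 462 and 583 TPM in the other wild-type libraries and 256 to 321 TPM in ilet7 control. No marker of the 10 was at 0 in any of the 6 libraries. The 8 ES markers summed to between 7403 and 7481 TPM in wild type and between 7328 and 7563 TPM in ilet7 control, so the ES identity on the labels was borne by both lines. Markers of primitive endoderm summed to at most 13.5 TPM, of trophoblast to at most 14.6 TPM and of mesoderm to at most 1.91 TPM. Without wild-type replicate 2 the test called 627 genes higher and 348 lower. In bulk RNA, fewer cells of a type and less RNA per cell cannot be told apart.

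Some genes were on in one line and nearly off in the other. With off set at under 0.5 TPM in every library and on at 5 TPM or more in every library, 14 genes were on in ilet7 control and off in wild type. Of these, 7 have names other than clone or predicted-model names. Only 1 gene, a predicted model, showed the reverse.

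Mid1 (X:169685199-170005736, plus strand), which encodes a ubiquitin ligase bound to microtubules, was at 3.00, 3.58 and 3.59 TPM in wild type. It was at 75.5, 81.4 and 81.0 TPM in ilet7 control, a difference of 4.20 ± 0.11 (SE; adjusted p = 3.4e-06). It lay in a run of called genes at the end of the X chromosome, which held 5 tested genes, all called higher. Among them was the antisense transcript WI1-2389C6.2, named here after its values were seen, at 0.80 ± 0.32 TPM in wild type and 70.5 ± 17.1 TPM in ilet7 control (SD, n = 3). It overlaps Mid1 on the other strand, and without strand in the counting their reads cannot be told apart. The Lin28a-null libraries averaged 9.80 TPM of Mid1 and those labelled Lin28b-null 28.0 TPM, between the lines compared.

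Olig2 (16:91225457-91228677), a basic helix-loop-helix factor of oligodendrocyte and motor neuron precursors, was at 0.16, 0.21 and 0 TPM in wild type. It was at 15.3, 18.1 and 19.9 TPM in ilet7 control (difference 4.06 ± 0.17, adjusted p = 3.8e-05). Its neighbour and relative Olig1 rose with it, from 1.12 ± 0.33 to 15.1 ± 0.56 TPM (2.94, adjusted p = 1.1e-04). The other neural markers stayed low in both lines, with Sox1 between 2.10 and 3.00 TPM and Pax6 between 0.36 and 0.92 TPM. Of 10 neural genes tested, Olig1 and Olig2 passed higher, Sox11 passed lower, and 7 did not pass. Without wild-type replicate 2, 3 passed lower. Without ilet7 control replicate 1 or wild-type replicate 3, Sox11 no longer passed (adjusted p = 0.054 and 0.059). Lin28a-null libraries averaged 69.6 TPM of Olig2, and those labelled Lin28b-null 0.23 TPM.

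Ubd, a ubiquitin-like modifier induced by inflammatory cytokines, was at 0.62, 0.65 and 0.38 TPM in wild type and at 30.9, 26.2 and 28.7 TPM in ilet7 control (4.25, adjusted p = 1.5e-05). Slc15a2, a peptide transporter, stood at 0.40 ± 0.35 TPM in wild type and 15.7 ± 1.58 TPM in ilet7 control (3.60, adjusted p = 1.6e-04). Among more abundant genes chosen after their values were seen, Fxyd6, a regulator of the sodium pump, was at 44.2 ± 7.25 and 296 ± 12.7 TPM (2.73, adjusted p = 3.8e-05). Jam2, an adhesion molecule of cell junctions, was at 88.7 ± 5.39 and 282 ± 6.56 TPM (1.66, adjusted p = 3.2e-05). The 3 tested peptidylarginine deiminase genes of one block of chromosome 4, Padi2, Padi3 and Padi4, were all called higher. Padi3 was the largest of them, at 1.37 ± 0.63 and 15.1 ± 1.28 TPM, while Padi2 no longer passed without any of the ilet7 control libraries in turn (adjusted p = 0.088 to 0.101) or without wild-type replicate 1 or 3 (0.075 and 0.099).

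**Figure D2:**
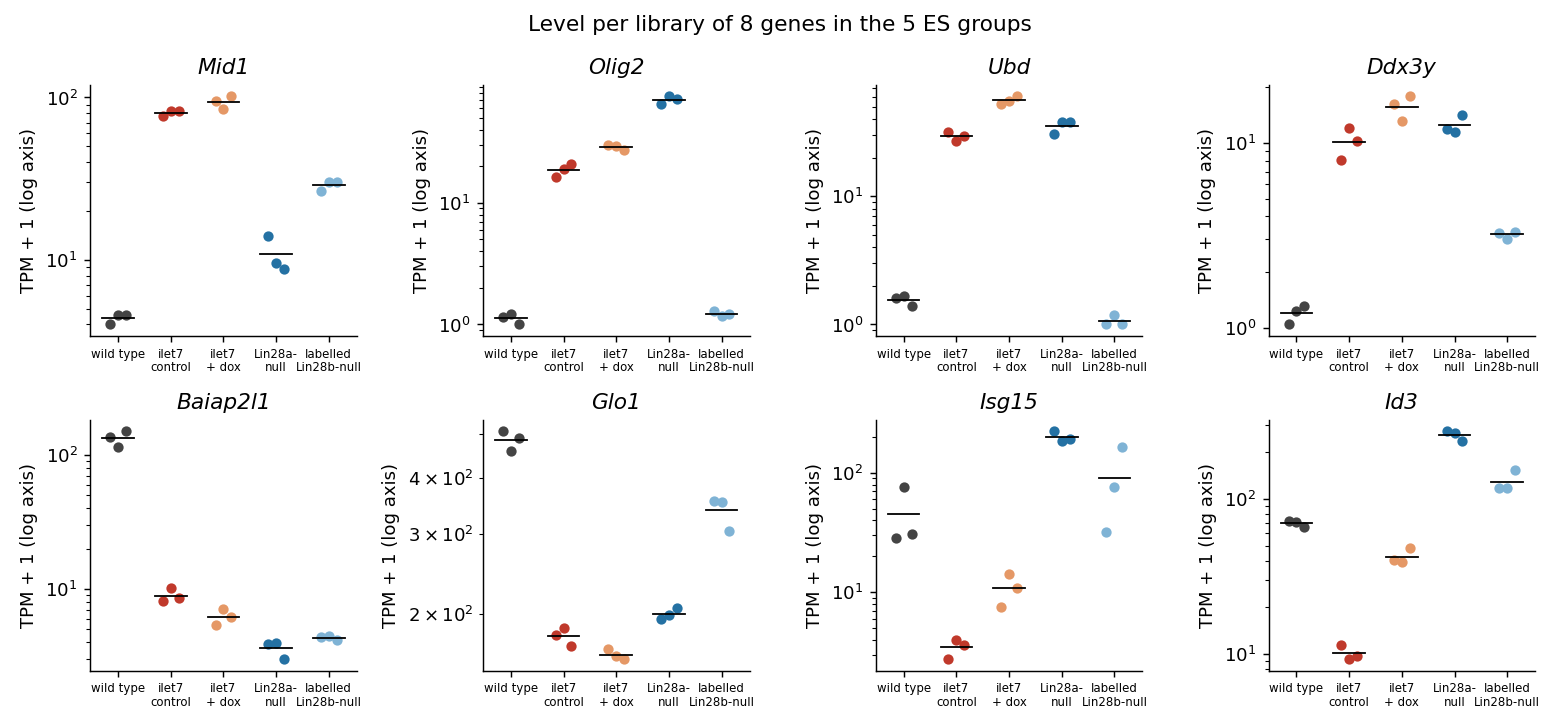
Each panel gives 1 gene, with the level of each library as TPM + 1 on a log axis and the 5 ES groups along the x axis. Bars are means of 3 libraries. Mid1, Olig2, Ubd and Ddx3y were under 4 TPM in each wild-type library and at 7.13 TPM or more in each ilet7 control library, whereas Baiap2l1, Glo1, Isg15 and Id3 were higher in wild type.

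Y-linked genes separated the lines. Ddx3y, an RNA helicase, was at 0.04, 0.24 and 0.31 TPM in wild type and at 7.13, 11.0 and 9.31 TPM in ilet7 control. Eif2s3y, a translation initiation subunit, was at 0.26 ± 0.18 and 9.002 ± 0.15 TPM (3.00, adjusted p = 1.3e-04). Of 8 genes tested on the Y chromosome, 7 were called higher (87.5%), and none lower. Genes near 0 in wild type, as Ddx3y and Eif2s3y were, reached the mean of 1 TPM only through ilet7 control. Their direction thus followed from the filter, and the share is a description only. A run of 4 of these genes held Ddx3y and Eif2s3y, and a separate run of 3, from 90753057 to 90844040, held Mid1-ps1, a pseudogene named after Mid1. The 2 runs did not move together across groups. Gm21742 of the second run averaged 22.1 TPM in ilet7 control and 1.13 TPM in Lin28a-null libraries, where Ddx3y averaged 9.15 and 11.5 TPM. Xist, the RNA that coats an inactive X chromosome, was at most 1.66 TPM in wild type and 0.40 TPM in ilet7 control, too low to be tested. Eif2s3y also averaged 14.8 TPM in Lin28a-null libraries and 4.99 TPM in those labelled Lin28b-null.

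On the wild-type side, Baiap2l1 (5:144264526-144358112, minus strand), which links membranes to actin, was at 135, 114 and 149 TPM. It was at 7.08, 9.09 and 7.58 TPM in ilet7 control, the largest drop outside pseudogenes among the genes named by rule (fell by 3.90, adjusted p = 1.5e-05). Sh3rf2 was at 48.6 ± 11.8 and 3.41 ± 0.43 TPM (fell by 3.47, adjusted p = 9.3e-05). Both genes were also low in the other ES groups, with group means of 2.61 to 5.20 TPM for Baiap2l1 and 1.19 to 4.65 TPM for Sh3rf2. Wild type was thus the group that stood apart for these genes.

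A run of 4 neighbouring genes called lower lay on chromosome 17, from 30215524 to 30877365, with no other tested gene between them. Runs were formed from called genes, so the shared direction follows from the definition. This run held Glo1, the glyoxalase that clears methylglyoxal, at 508, 459 and 489 TPM in wild type and 178, 185 and 168 TPM in ilet7 control (fell by 1.45 ± 0.06, adjusted p = 4.3e-05). Its flanking genes Btbd9, a BTB-domain protein, and Dnah8, an axonemal dynein, went from 18.3 ± 0.61 to 7.64 ± 0.35 TPM and from 40.3 ± 2.75 to 9.56 ± 0.70 TPM. As at every called gene, the lines did not overlap at these genes. Over the genome, 15 runs of at least 3 called genes less than 300 kb apart were higher in ilet7 control, with 58 genes, and 11 runs were lower, with 48 genes. The longest was on chromosome 13, where 11 of 23 tested genes, all of them predicted models or a clone-named gene, were lower.

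Nnt, the mitochondrial transhydrogenase, is annotated as 2 overlapping gene models (13:119335448-119408997 and 119335528-119408952, minus strand). The second model was listed at 0 in all 3 wild-type libraries and at 37.8, 31.4 and 34.9 TPM in ilet7 control. The first went the other way, from 43.4, 40.2 and 29.9 TPM to 4.89, 10.4 and 7.83 TPM (fell by 2.19, adjusted p = 0.0028). All 17 exons of the second model overlap exons of the first, and 15 are identical, so the split of reads between them is uncertain. Their sum was 37.8 ± 7.01 TPM in wild type and 42.4 ± 0.51 TPM in ilet7 control, with overlapping libraries. Each model separated the lines, and the summed level did not.

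Processed pseudogenes were also called, some in the direction opposite to their parent gene. Only uniquely mapped reads were kept by the study, so for near-identical copies a few differing bases decide which reads count, and these values are uncertain. Rps2 encodes a protein of the small ribosomal subunit. It was at 328, 359 and 330 TPM in wild type and at 2585, 2597 and 2487 TPM in ilet7 control (2.91 ± 0.06, adjusted p = 8.7e-07). Rps2-ps10, a pseudogene on chromosome 18, was at 1381, 1549 and 1565 TPM and then at 54.5, 47.1 and 45.8 TPM (fell by 4.90, adjusted p = 6.9e-07). The pair summed to between 1709 and 1908 TPM in wild type and between 2533 and 2644 TPM in ilet7 control.

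There were 19 called pseudogenes whose parent gene was tested too. In 13 of these pairs the parent passed, which were 8 different parents, and pseudogene and parent moved the opposite way in 7 pairs and the same way in 6. The summed level of parent and pseudogene did not overlap between the lines in any of the 13. These pairs were picked because the parent passed, which by itself favours sums that differ. Each sum also adds a single pseudogene, although Rps2, Rpl21 and Rpl35a had several that were called. The part of read assignment between copies in these differences was not tested. Itpa, which clears deaminated purine nucleotides, was called higher (1.62) while Itpa-ps1 was lower (fell by 3.54). Rps18 and Rpl35a were higher by 2.95 and 2.34, and Rps18-ps3 and Rpl35a-ps2 were lower. Pcna-ps2 and Rpl15-ps2 were higher by 3.73 and 4.61, with parents that did not pass. Of all 90 genes in the list of cytosolic ribosomal proteins, 12 passed higher, 4 lower and 74 did not pass, with a median of 0.11. Differences of the list were positive at 78 genes and negative at 12. The 7 called higher (Rps3a2, Rps3a3, Rpl21, Rps18, Rps2, Rpl35a and Rpl30) all have such copies or are copies themselves by name or annotation. How many of the other list genes have such copies was not counted, so this does not set the 7 apart. The summed level of the list was 93657 to 100634 TPM in wild type and 105167 to 113289 TPM in ilet7 control.

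**Figure D3:**
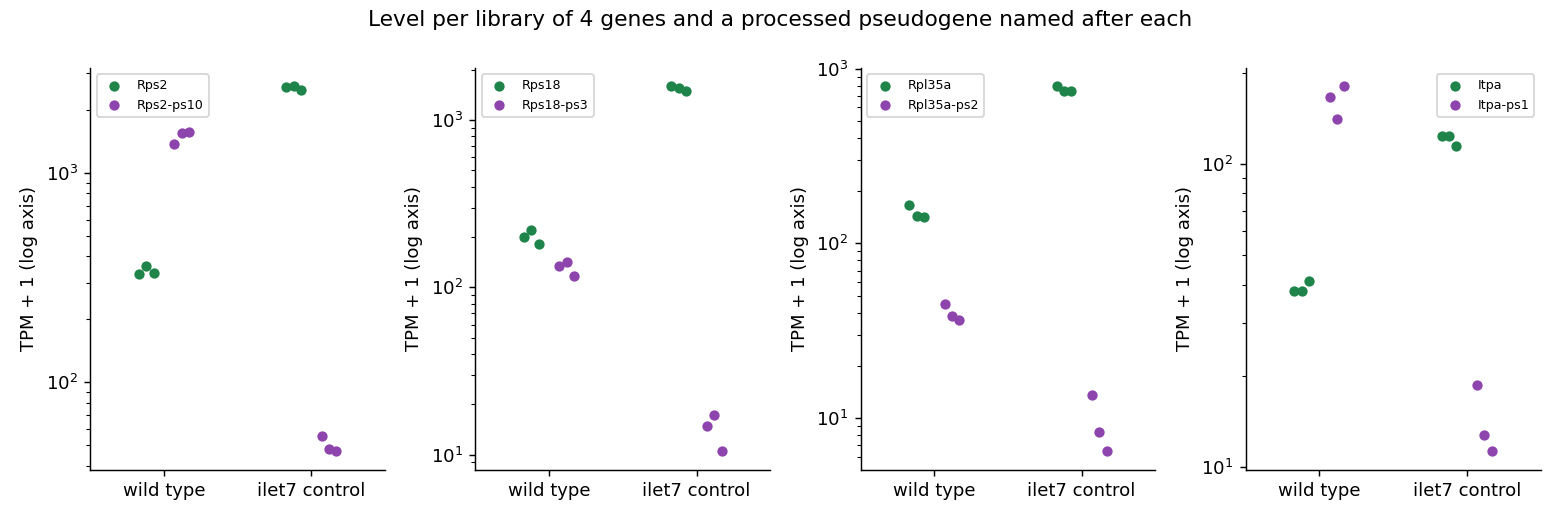
Each panel gives a parent gene (green) and a processed pseudogene named after it (purple), as TPM + 1 per library on a log axis, in 3 wild-type and 3 ilet7 control libraries. In all 4 panels the parent was higher and the pseudogene lower in ilet7 control, as with Rps2 and Rps2-ps10.

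Of 46 interferon-stimulated and RNA-sensing genes tested, 24 passed lower, 0 passed higher and 22 did not pass, with a median of −1.01, against a median of 0.02 over all genes tested. The libraries of the lines did not overlap at 38 of the 46, against 40.2% of all genes. Isg15, a ubiquitin-like protein conjugated during antiviral responses, was at 27.4, 75.4 and 30.0 TPM in wild type and at 1.76, 2.98 and 2.65 TPM in ilet7 control (fell by 3.57 ± 0.38, adjusted p = 0.0018). Usp18, which removes ISG15 from proteins, was at 27.2, 83.9 and 29.2 TPM and then at 3.34, 3.58 and 5.64 TPM (fell by 3.03, adjusted p = 0.0054). Wild-type replicate 2 was highest for both genes, and the lowest wild-type library still lay above every ilet7 control library.

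Irf7, a transcription factor of the interferon response, was among the genes that passed and fell by 1.86 on the log2 scale. The RNA sensor Ddx58 fell by 2.04. Abundant effectors also fell, Bst2, which tethers virus particles to the cell surface, from 570 ± 141 to 267 ± 7.14 TPM and Ly6e from 469 ± 90.1 to 194 ± 30.7 TPM. Ifit3, a member of a family of antiviral proteins, was at 3.80, 27.5 and 6.40 TPM and then at 0.10, 0.43 and 0.26 TPM (fell by 3.00, adjusted p = 0.018). Ifit3 missed the threshold when any of the ilet7 control libraries was left out (adjusted p = 0.057 to 0.069). Irf7 missed it without ilet7 control replicate 1 or 2 (0.060 and 0.057).

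Of 44 genes on a longer list of fibroblast and feeder genes, 19 passed lower, 0 higher and 25 did not pass, with a median of −0.88. Its 47 listed genes summed to between 3331 and 6183 TPM in wild type and between 2976 and 3226 TPM in ilet7 control. Col1a1, the main collagen of fibroblasts, was at 130, 388 and 166 TPM in wild type and at 91.9, 114 and 100 TPM in ilet7 control (−0.99, adjusted p = 0.11, not passed). Without wild-type replicate 2 it was −0.53 and passed (adjusted p = 0.033). Without it the interferon list had 25 genes lower, 1 higher and a median of −0.80, and the fibroblast list 23 lower, 2 higher and a median of −0.56. Leaving out an ilet7 control library left 13 to 15 interferon genes and 4 to 7 fibroblast genes lower, and leaving out wild-type replicate 3 left 17 and 7. The part of feeder fibroblasts in the interferon values was not tested.

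The levels in the other ES groups are set beside these. The fibroblast list summed to 8243 to 11093 TPM and the interferon list to 5149 to 5743 TPM in Lin28a-null libraries, the highest of the 5 groups by median. The doxycycline-treated ilet7 libraries had 3438 to 3710 TPM and 3633 to 3892 TPM, both above ilet7 control. Isg15 averaged 199 TPM in Lin28a-null cells, 89.6 ± 67.3 TPM in cells labelled Lin28b-null and 9.97 TPM in doxycycline-treated ilet7 cells.

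**Figure D4:**
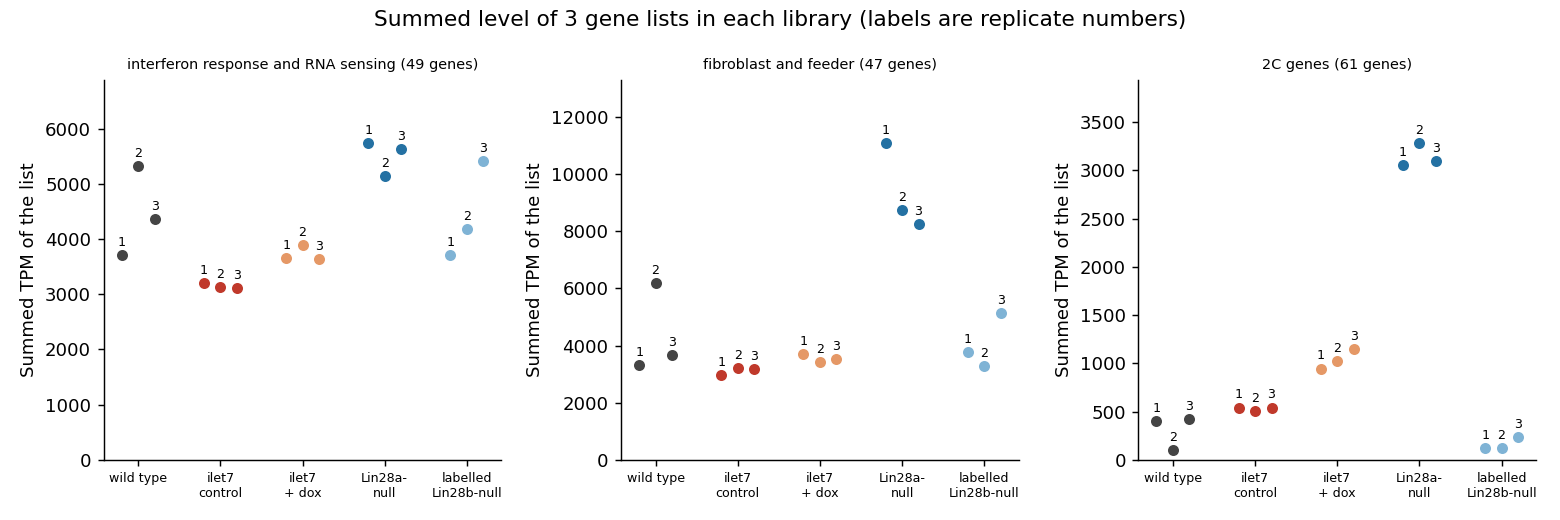
Each point is the summed TPM of a gene list in 1 library, numbered by replicate, in the 5 ES groups, with axes from 0. Wild-type replicate 2 was the highest wild-type library for the interferon list (5326 TPM) and the fibroblast list (6183 TPM) and the lowest for the 2C list (106 TPM), and the 3 ilet7 control libraries lay close together.

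Of 15 tested genes with a chemokine ligand symbol, a set formed after the values were seen, 8 passed lower, 0 higher and 7 did not pass, with a median of −0.94. Ccl2, which attracts monocytes and is secreted by fibroblasts, was at 29.9, 51.9 and 40.3 TPM in wild type and at 3.33, 3.99 and 4.55 TPM in ilet7 control (fell by 3.04, adjusted p = 2.8e-04). Its neighbours Ccl7 and Ccl11 were called lower as well. So were Cxcl5 and Cxcl1 on chromosome 5, which attract neutrophils, Cxcl5 from 35.1 ± 14.1 to 4.84 ± 1.07 TPM. These genes were named after their values were seen, apart from Ccl2, which is also on the fibroblast list. The fibroblast markers were lower in the same ilet7 control libraries, and their part in the chemokine values was not tested.

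Genes of antigen presentation passed in both directions. Of 37 on the list, which holds the class I genes but not H2-Eb1 or H2-Ab1, 2 passed higher, 11 lower and 24 did not pass. The H2-T run of chromosome 17 was formed from genes called lower, so a high share of lower genes within it follows from its definition. Of 11 tested genes wholly within it, 8 were called lower and 1, H2-Bl, higher. H2-Q4 was at 57.3, 80.2 and 62.7 TPM in wild type and at 10.5, 10.3 and 9.97 TPM in ilet7 control (fell by 2.57, adjusted p = 9.3e-05). H2-T9 went from 16.1 ± 1.16 to 2.36 ± 0.60 TPM (fell by 2.36). The classical class I genes H2-K1 and H2-D1 were at −0.51 and −0.36 and did not pass (adjusted p = 0.056 and 0.24). When wild-type replicate 1 was left out both did (−0.68, adjusted p = 0.014, and −0.57, adjusted p = 0.046). B2m, their shared light chain, passed lower (fell by 0.69, adjusted p = 0.047) but not without wild-type replicate 3 or any of the ilet7 control libraries (0.094 to 0.132).

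Other genes of the chromosomal region were higher in ilet7 control. H2-Bl, a class I gene annotated as a polymorphic pseudogene, was at 0, 0.25 and 0.08 TPM in wild type and at 30.8, 34.0 and 24.8 TPM in ilet7 control. The class II genes H2-DMb1 and H2-Eb1, which load and present peptides in immune cells, were at 0.44 ± 0.53 and 3.39 ± 0.62 TPM in wild type and at 10.7 ± 2.01 and 29.4 ± 1.97 TPM in ilet7 control. Many of these genes are near-identical copies, so their values are uncertain. Leaving out any of the ilet7 control libraries or wild-type replicate 3 left 7 or 8 genes of the list lower, and leaving out wild-type replicate 2 gave 4 higher and 12 lower.

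Of 21 targets, feedback inhibitors and receptors of FGF signalling tested, 7 passed lower, 1 higher and 13 did not pass, with a median of −0.35. Over all genes tested, 8.46% passed lower and 9.18% higher. Dusp6, a phosphatase that switches off ERK, was at 67.4, 63.1 and 69.7 TPM in wild type and at 20.1, 21.6 and 21.2 TPM in ilet7 control (fell by 1.62 ± 0.08, adjusted p = 7.0e-05). Spry4 and Spry2, inhibitors of receptor tyrosine kinase signalling, fell by 1.96 and 1.15, Spry2 from 199 ± 1.48 to 89.4 ± 2.27 TPM. As at every called gene, the lines did not overlap at these genes. The 1 gene that passed higher was the receptor gene Fgfr4, at 1.77 ± 0.14 and 4.93 ± 0.27 TPM (1.10, adjusted p = 0.0047). Another receptor, Fgfr2, passed lower (fell by 1.22, adjusted p = 0.034), but not without ilet7 control replicate 1 or 3 or wild-type replicate 1 or 3 (0.070 to 0.107). The count of genes lower was 4 without ilet7 control replicate 3, 5 without ilet7 control replicate 1 or wild-type replicate 1 or 3, and 10 without wild-type replicate 2.

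Id3 and Id1, inhibitors of basic helix-loop-helix factors and targets of BMP signalling, were named after their values were seen. Id3 was at 71.0, 70.2 and 65.2 TPM in wild type and at 10.4, 8.28 and 8.70 TPM in ilet7 control (fell by 2.79, adjusted p = 2.9e-05). It was at 41.5 ± 4.82 TPM in ilet7 cells given doxycycline and at 259 ± 19.2 TPM in Lin28a-null cells. Id1 fell by 1.34, from 16.2 to 5.71 TPM. Of 21 immediate early genes, 7 passed lower, 0 higher and 14 did not pass, against 8.46% lower and 9.18% higher of all genes. Among the 7 were the nuclear receptors Nr4a3 (fell by 1.42) and Nr4a2 (fell by 1.09) and the oncogene Myc (fell by 1.03). Nr4a2 missed the threshold without ilet7 control replicate 1 or 3 or wild-type replicate 3 (0.072, 0.070 and 0.057), and Myc without ilet7 control replicate 3 (0.051). Without wild-type replicate 2, 7 genes of the list passed higher and 7 lower, and without ilet7 control replicate 3 the counts were 0 and 3.

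**Figure D5:**
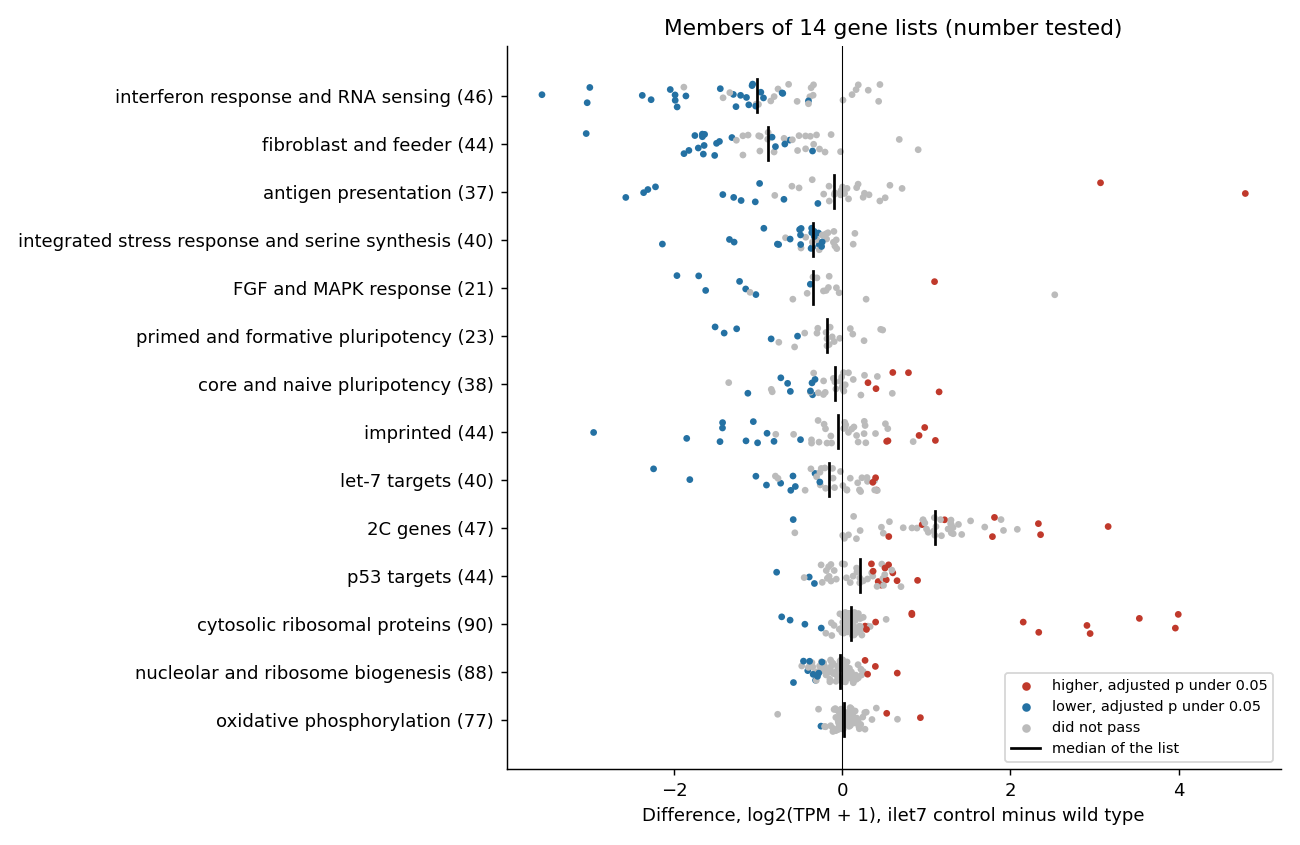
Each point is 1 tested member of 14 gene lists, placed by its difference, ilet7 control minus wild type, on the log2(TPM + 1) scale, red or blue where it passed and grey where it did not. Black bars are list medians, which ran from −1.01 for interferon genes to 1.10 for 2C genes.

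The core pluripotency factors did not pass. Pou5f1, the factor OCT4, was at 1545, 1394 and 1491 TPM in wild type and at 1550, 1477 and 1433 TPM in ilet7 control (0.01 ± 0.06, adjusted p = 0.93). Nanog and Sox2 were at −0.11 and −0.09 (adjusted p = 0.27 and 0.52). Of 38 genes of core and naive pluripotency, 5 passed higher, 8 lower and 25 did not pass, with a median of −0.08. Zfp42 (REX1), a marker of naive cells, was at 539, 498 and 530 TPM and then at 348, 349 and 325 TPM (fell by 0.62, adjusted p = 0.0012). It did not pass when all 15 ES libraries shared 1 estimate of spread (adjusted p = 0.19). Tdgf1, a co-receptor of NODAL, was higher, at 503 ± 85.9 and 862 ± 2.56 TPM (0.79, adjusted p = 0.0057). Prdm14, a repressor of FGF signalling and DNA methylation genes in naive cells, was at 42.0 ± 2.39 and 64.3 ± 1.66 TPM (0.60, adjusted p = 0.0034). Without wild-type replicate 2, 9 genes of the list passed higher and 12 lower, and without ilet7 control replicate 3 the counts were 3 and 4.

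Of 23 genes of the primed and formative states tested, 5 passed lower, 0 higher and 18 did not pass, with a median of −0.18. Over all genes tested, 8.46% passed lower and 9.18% higher, so few of 23 would pass higher at that share. Zic2, a zinc finger factor of the later epiblast, was at 136, 94.4 and 144 TPM in wild type and at 41.6, 41.7 and 43.8 TPM in ilet7 control (fell by 1.51, adjusted p = 0.0016). Dnmt3b, a de novo DNA methyltransferase, went from 46.1 ± 6.16 to 25.1 ± 1.44 TPM (fell by 0.84, adjusted p = 0.0051). Its partner Dnmt3l was at −0.99 and did not pass (adjusted p = 0.066), but it passed without wild-type replicate 2, at −0.60 (adjusted p = 0.0048). Otx2, a driver of exit from the naive state, was at 36.9, 105 and 35.6 TPM in wild type and at 57.3, 48.7 and 47.1 TPM in ilet7 control. It was at −0.03 with all libraries (adjusted p = 0.97), and at 0.48 without wild-type replicate 2 (adjusted p = 0.019). Without that library 12 genes of the list passed lower and 4 higher, with a median of −0.43.

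Of 16 WNT response genes, 4 passed lower and 0 higher, with a median of −0.33, against 8.46% lower and 9.18% higher of all genes. Cdx1, a caudal homeobox factor, was at 55.7, 15.7 and 56.9 TPM in wild type and at 8.41, 7.19 and 8.55 TPM in ilet7 control. Cdx1 (fell by 2.07, adjusted p = 0.024) missed the threshold when any of the libraries but wild-type replicate 2 was left out (0.069 to 0.082). The WNT list had 1 gene lower without any of the ilet7 control libraries or wild-type replicate 3, 2 without wild-type replicate 1 and 6 without wild-type replicate 2. Of 16 LIF response genes, 2 passed higher and 1 lower, against 6 and 2 without wild-type replicate 2. Socs3, the feedback inhibitor of LIF signalling, was at 32.3, 54.5 and 34.1 TPM and then at 92.2, 91.9 and 91.8 TPM (1.21, adjusted p = 0.0075).

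LIN28 genes did not pass. Lin28a was at 31.5, 61.2 and 32.0 TPM in wild type and at 24.9, 20.4 and 23.7 TPM in ilet7 control (−0.76 ± 0.25, adjusted p = 0.080). All ilet7 control libraries lay below all wild-type libraries, and without wild-type replicate 2 the difference was −0.45 and passed (adjusted p = 0.025). It also passed when all 15 ES libraries shared 1 estimate of spread (adjusted p = 0.017). Lin28b was at 4.50 ± 0.79 and 3.25 ± 0.55 TPM (−0.37, adjusted p = 0.21). Doxycycline-treated ilet7 cells had 6.84 ± 0.54 TPM of Lin28a, Lin28a-null cells 17.1 ± 3.38 TPM and cells labelled Lin28b-null 74.9 ± 7.47 TPM. Lin28b itself averaged 12.97 TPM in the libraries labelled Lin28b-null, above wild type. The Lin28a-null libraries likewise kept Lin28a mRNA, and the level of an mRNA alone does not decide whether a knockout label holds.

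Known let-7 targets passed in both directions. Of 40 tested, 10 passed lower, 3 higher and 27 did not pass, with a median of −0.16. Over all genes tested, 8.46% passed lower and 9.18% higher. Igf2bp1, an mRNA-binding protein of growth control, was at 199, 163 and 196 TPM in wild type and at 115, 129 and 119 TPM in ilet7 control (fell by 0.61, adjusted p = 0.0073). The largest decrease was in Thbs1, a matrix protein also made by fibroblasts, from 87.0 ± 50.6 to 15.9 ± 1.89 TPM (fell by 2.24, adjusted p = 0.0079). Ccnd2, a D-type cyclin, fell by 1.81. Hmga2, a chromatin protein and classical target, was at 0.39 and did not pass (adjusted p = 0.11), but passed without wild-type replicate 2 at 0.53 (adjusted p = 0.015). E2f5, a cell cycle factor, passed higher (0.41, adjusted p = 0.011), though not without ilet7 control replicate 2 (0.053). The count higher was 0 without that library and 6 without wild-type replicate 2. The count lower ranged from 6 without ilet7 control replicate 3 to 13 without wild-type replicate 2. Of 23 genes of LIN28, let-7 and microRNA processing, 2 passed higher, 2 lower and 19 did not pass. None of these passed when any of the libraries but wild-type replicate 2 was left out, and without that one 3 were higher and 5 lower.

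Imprinted genes, which are expressed from a single parental allele, fell or rose by gene. Of 44 tested, 11 passed lower, 5 higher and 28 did not pass, with a median of −0.05. Mest, a paternally expressed gene of chromosome 6, was at 55.9, 34.4 and 52.9 TPM in wild type and at 4.94, 4.77 and 5.78 TPM in ilet7 control (fell by 2.96, adjusted p = 2.4e-04). Zdbf2, a paternally expressed gene of chromosome 1, fell by 1.42. Peg10 fell by 1.85 (adjusted p = 0.043), with wild-type replicate 2 at 43.4 TPM and the other wild-type libraries at 11.1 TPM. It no longer passed without wild-type replicate 3 or any of the ilet7 control libraries (0.057 to 0.127). H19 was at 24.1, 70.1 and 59.8 TPM in wild type and at 24.5, 31.7 and 24.2 TPM in ilet7 control (−0.79, adjusted p = 0.19). Without wild-type replicate 1 it was −1.25 and passed (adjusted p = 0.0081). Of the maternally expressed cluster on chromosome 12, Meg3 was under 0.10 TPM and Rian was listed at 0 in all 6 libraries. Mirg was at −0.21 (adjusted p = 0.52). Leaving out each library in turn gave 7 to 12 imprinted genes lower, the fewest without ilet7 control replicate 1 or 3, and 1 to 8 higher, the fewest without ilet7 control replicate 1 and the most without wild-type replicate 2.

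Genes of the 2C state had a positive median, 1.10 over 47 tested, yet only 8 passed higher and 1 lower. Wild-type replicate 2 set the spread. Zscan4c, a telomere and 2C factor, was at 9.03, 0.34 and 11.5 TPM in wild type and at 17.8, 15.6 and 17.3 TPM in ilet7 control (1.70 ± 0.78, adjusted p = 0.18). Without that library Zscan4c was at 0.68 and passed (adjusted p = 0.014), Zscan4d went to −0.04 from 1.12, and the list had 18 genes higher, 3 lower and a median of 0.28. Without ilet7 control replicate 1 or 3 the count higher was 4. Tcstv1, a 2C gene of chromosome 13, was at most 0.15 TPM in wild type and at 5.75, 3.43 and 4.57 TPM in ilet7 control (2.36, adjusted p = 9.1e-04). Tcstv1 reached the level needed for the test only through ilet7 control, so its direction followed from the filter. The same holds for any list member that averaged under 1 TPM in wild type. Duxf3, the factor DUX that activates the program, was listed at 0 in all 6 libraries. It was also at most 0.05 TPM in each Lin28a-null library. The paper reports a marked rise of Dux in Lin28 knockout cells, so such a low listing need not mean absence. Only uniquely mapped reads were kept, so the values of 2C genes with near-identical copies are uncertain. The summed list was 106 to 423 TPM in wild type, 506 to 542 TPM in ilet7 control and 3054 to 3282 TPM in Lin28a-null libraries. Of 43 repressors and activators of the program, 7 passed lower and 0 higher, and Trim28, its co-repressor, was at −0.07 (adjusted p = 0.34). The count lower ranged from 2 without wild-type replicate 3 to 9 without wild-type replicate 2.

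Of 40 genes of the integrated stress response and serine synthesis, 22 passed lower, 0 higher and 18 did not pass, with a median of −0.34, and 3 were called. Over all genes tested, 8.46% passed lower, 9.18% passed higher and 4.84% were called. Chac1, which degrades glutathione, was at 84.6, 93.3 and 84.8 TPM in wild type and at 20.0, 16.7 and 20.8 TPM in ilet7 control (fell by 2.14 ± 0.10, adjusted p = 6.6e-05). Atf5, a stress transcription factor, fell by 1.34 and Slc7a3, a cationic amino acid transporter, by 1.28. Atf4, the factor at the head of the response, was at −0.10 (adjusted p = 0.69). The summed list was 8585 to 8941 TPM in wild type and 6693 to 7392 TPM in ilet7 control. Leaving out any of the libraries but wild-type replicate 2 left 10 to 14 genes lower.

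Of 44 p53 targets, 10 passed higher, 3 lower and 31 did not pass, with a median of 0.21. Over all genes tested, 9.18% passed higher and 8.46% lower. Bbc3 (PUMA), a trigger of apoptosis, was at 46.1 ± 10.8 and 85.5 ± 6.35 TPM (0.90, adjusted p = 0.011), and Cdkn1a, the inhibitor p21, was at 348 ± 27.4 and 449 ± 14.9 TPM (0.37, adjusted p = 0.016). Cdkn1a missed the threshold without ilet7 control replicate 1 or 3 or wild-type replicate 3 (0.055 to 0.066). Trp53 itself passed lower (fell by 0.33, adjusted p = 0.025), but not when any of the libraries except wild-type replicate 2 was left out (0.055 to 0.095). The number of targets higher was 2 to 4 without any of the libraries but wild-type replicate 2, and 25 without that one, while the number lower was 0 without any of the ilet7 control libraries or wild-type replicate 3.

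Lists of shared cell machinery are read against the 9.18% of all genes that passed higher and the 8.46% that passed lower. Of 88 nucleolar and ribosome biogenesis genes, 4 passed higher, 9 lower and 75 did not pass, with a median of −0.02, and none was called. Leaving out each library in turn gave 1 to 4 higher and 1 to 20 lower, the fewest lower without wild-type replicate 3 and the most without wild-type replicate 2. Npm1 and Fbl, nucleolar proteins, were at −0.01 and 0.08 (adjusted p = 0.94 and 0.48). Ncl was at −0.30 and did not pass (adjusted p = 0.097), but passed without wild-type replicate 2 at −0.43 (adjusted p = 0.0021). Of 77 oxidative phosphorylation genes, 2 passed higher and 1 lower, with 0 higher without any of the ilet7 control libraries and 6 without wild-type replicate 2. Of the mitochondrially encoded genes, 6 of 13 passed lower, mt-Nd1 from 2845 ± 42.2 to 1963 ± 93.2 TPM (fell by 0.54, adjusted p = 0.0015). Without ilet7 control replicate 3 only 1 of the 13 passed. Of 75 mitochondrial ribosomal proteins, 5 passed higher and 4 lower, and of 45 cell cycle genes 2 passed higher and 5 lower, against 9 and 9, and 4 and 11, without wild-type replicate 2. Without ilet7 control replicate 3 these were 2 and 0, and 0 and 2. Of the cell cycle genes, the D-type cyclin Ccnd3 fell by 1.63, from 290.5, 354 and 379 TPM to 65.3, 156 and 126 TPM (adjusted p = 0.013), and missed the threshold without wild-type replicate 3 (0.051).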

How the data were processed

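RNA sequencing was measured in 23 samples. The 6 libraries compared here belong to a deposited table of 15 ES libraries, in TPM (a level per transcript length, scaled to a fixed total), grouped by their labels. The authors called bases with CASAVA 1.8, trimmed reads, aligned them to mm10 with HISAT2, removed duplicates with Picard, kept uniquely mapped reads and obtained TPM with StringTie over GENCODE M18 genes. Poly-T beads selected the RNA, so genes without poly-A tails are poorly measured. TPM keeps no read depth (columns sum to 999488 to 999886), so no counting interval is given and the precision of low values is unknown. The iPS and embryo tables were not used here, and no column was left unused.

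Of 53715 genes, 53620 matched GENCODE M21 by identifier, which gave coordinates, and 27 symbols turned into dates were restored. The 15693 genes that reached a 6-library mean of 1 TPM were tested on the log2(TPM + 1) scale by limma (version 3.58.1, R 4.3.3), with 2 groups and a variance trend. Tests were two-sided with Benjamini-Hochberg adjustment across those genes, and the fit was tested on simulated data. Python 3.11.15 made the summaries and figures.

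Members and the 35 gene lists were chosen with earlier results of these data known. Genes are named by a rule: a fixed set, the 10 largest called differences in each direction with no overlap between lines, the 5 most abundant called in each direction, up to 5 in each direction that were on in one line and off in the other, and up to 4 strongest members of each list with the strongest opposite one, or 2 where none passed (clone and predicted-model names left out). Other genes were chosen after their values were seen. They are Btbd9, Dnah8, Itpa, Ccl7, Ccl11, Cxcl1, Cxcl5, Id1, Id3, Fxyd6, Jam2, Padi2, Padi3, Padi4, H2-Eb1, H2-K1, H2-D1, B2m, Spry2, Prdm14, Irf7, Ddx58, Atf4, Ddx4, Krt8, Mdm2, Mycn, Rpl30, Rpl35a-ps2, Gm21742 and WI1-2389C6.2. Alternatives were other pseudocounts, filters, scalings, no variance trend, all 15 ES libraries in 1 fit, a replicate block and each library left out.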

Additional observations from a re-analysis of the deposited data

How the results depend on the processing

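With genes required to reach a mean of 5 TPM, 458 were called between the lines and 222 were higher, and the other comparisons fell to 1327 (Lin28a-null), 931 (labelled Lin28b-null) and 167 (doxycycline), which were fewer genes tested. With a pseudocount of 0.1, doxycycline gave 456 and the lines 902. Leaving out each library in turn gave 553 to 975 genes called, 308 to 627 higher and 236 to 375 lower, with the most higher without wild-type replicate 2. Quantile normalization gave 370 higher and 430 lower. A replicate block gave 721 calls, of which 694 were called without it. Libraries of the same number correlated at 0.13, 0.03 and 0.05 in their deviations from the group means, so the numbers were not taken to pair them. Of the 186 named genes that passed, 112 passed under every alternative that tested them, and none changed sign. The genes that changed sign did not pass at first: under quantile normalization Pou5f1 was at −0.0695. With 1 library left out the values ran from −0.031 to 0.0432 for Pou5f1, −0.30 to 0.0387 for Atf4, −0.0262 to 0.27 for Klf4, −0.51 to 0.0331 for Krt8, −0.13 to 0.0095 for Mdm2 and −0.43 to 0.0025 for Mirg. They ran from −0.42 to 0.24 for Mycn, −0.11 to 0.0429 for Npm1, −0.29 to 0.48 for Otx2 and −0.0415 to 1.72 for Zscan4d, and the cause was not tested. TPM keeps no depth, so the counting error of low genes is unknown.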

Other observations

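Other lists gave these values. Over all genes tested, 9.18% passed higher, 8.46% passed lower and 2.59% were called higher. A count near those shares says nothing particular about a list. Of 33 germline genes, 9 passed higher and 4 lower, with a median of 0.39, and 5 were called higher. The count lower was 1 without ilet7 control replicate 1. Cyct, the testis cytochrome c, was higher by 1.87, and Ddx4, an RNA helicase of germ cells, by 0.99. Of 16 trophoblast genes, 4 passed higher and 2 lower, and of 17 endoderm genes 2 and 1. Without ilet7 control replicate 1 the trophoblast counts were 1 and 0, and without wild-type replicate 2 the endoderm counts were 5 and 1. Of 5 mesoderm genes, 1 passed lower, which was Cdx1, and none did without any of the libraries but wild-type replicate 2. Of 18 genes of the DNA methylation machinery, 1 passed higher and 3 lower, against 3 and 9 without wild-type replicate 2. Of 30 replication-dependent histones, which lack poly-A tails, 4 passed higher and 2 lower, against 2 and 0 without ilet7 control replicate 1 or 3. Of 30 glycolysis and hypoxia genes, 4 passed higher and 0 lower, with Ldhb, a lactate dehydrogenase subunit, higher by 0.91. The glycolysis counts were 2 and 0 without ilet7 control replicate 2 and 9 and 3 without wild-type replicate 2. Of 16 snoRNA host genes, 4 passed higher and 0 lower. Of 72 small nucleolar RNAs, 4 passed higher and 2 lower, against 1 and 0 without ilet7 control replicate 2. Of 21 protocadherin and homeobox cluster genes, 1 passed higher and 3 lower, against 3 and 5 without wild-type replicate 2 and 1 and 1 without any of the other libraries. Of 4 X inactivation genes tested, 1 passed lower. The Y-linked list held 12 genes, of which 4 reached the level needed for the test, and all 4 passed higher.

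The share of genes called differed by kind of gene. It was 4.16% of 13003 protein-coding genes, 8.4% of 1119 processed pseudogenes, 15.9% of 82 unprocessed pseudogenes, 9.69% of 351 long intergenic RNAs and 9.79% of 286 antisense RNAs. By chromosome it ran, among the autosomes, from 2.37% on chromosome 9 to 7.83% on chromosome 13. These shares have no test.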
